A study of Mus musculus with 14 samples.

Results

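The HSP90 chaperone system was followed through 10 genes of mouse embryonic stem cells (ESCs): *Hsp90ab1* and its chromosomal neighbour *Slc35b2*, the HSP90 paralogs *Hsp90aa1*, *Hsp90b1* and *Trap1*, the cochaperone *Cdc37*, the heat shock factor *Hsf1*, and the HSP70 system genes *Hspa8*, *Hsph1* and *Dnajb1*. They were found by gene symbol among 41204 genes, and all 10 were above the filter on low values that 15430 genes passed. *Hsp90ab1* and *Slc35b2* were chosen because their RNA differed between *Trincr1−/−* and wild-type ESCs, so their values are described without a test. The other 8 were chosen by function.

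Poly(A) RNA was sequenced from wild-type and *Trincr1−/−* ESCs, each in 2i + LIF and in PD + LIF, with 2 samples in each of 4 groups. All lines came from the C57BL/6(F) x 129/sv(M) background. *Trincr1* is a long noncoding RNA, listed as *Gm2694* in the deposited table, and the knockout was made with a pair of guide RNAs flanking exons 2 to 4. The sources used here do not state which knockout clone was sequenced, so a clone and the genotype cannot be told apart. 2i + LIF was N2B27 medium with 1 µM of the MEK inhibitor PD0325901, 3 µM of the GSK3 inhibitor CHIR99021 and 1000 units per ml of leukemia inhibitory factor (LIF). For PD + LIF, ESCs were plated in 2i + LIF for 24 hours and then kept for 4 days without CHIR99021. In a second experiment, RNA bound to FLAG-tagged TRIM71 was immunoprecipitated from UV-crosslinked ESCs in 2i + LIF that overexpressed the protein.

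The values are FPKM, fragments per kilobase of transcript scaled to all mapped fragments of the sample, as the authors deposited them. The steps between low FPKM values gave an estimated depth of 10.1 to 13.9 M fragments per sample. *Gm2694* was at 5.70 and 9.45 FPKM in wild-type and 0.0754 and 0 FPKM in *Trincr1−/−* ESCs in 2i + LIF, and at 6.18 and 6.56 against 1.38 and 0.746 FPKM in PD + LIF. All 8 ESC markers averaged at least 1 FPKM. Their summed level was 3413 to 3680 FPKM in 2i + LIF, 2713 to 3060 FPKM in wild type in PD + LIF and 1734 to 1971 FPKM in *Trincr1−/−* in PD + LIF. The 4 neural progenitor markers summed to 12.3 to 14.6 FPKM in 2i + LIF, 32.8 to 36.8 FPKM in wild type in PD + LIF and 41.3 to 42.1 FPKM in *Trincr1−/−* in PD + LIF. The fibroblast markers summed to at most 6.82 FPKM over 6 genes and the primitive endoderm markers to at most 3.68 FPKM over 5 genes. These sums moved with medium and genotype, but not every marker followed its sum. In PD + LIF, *Olig2* was at 5.06 and 6.58 FPKM in wild-type and 3.79 and 4.13 FPKM in *Trincr1−/−* ESCs. *Nes*, *Pax6* and *Sox1* were higher in *Trincr1−/−* there. *Klf4* overlapped between genotypes there, while the other ESC markers were lower in *Trincr1−/−*. *Dppa5a*, the most abundant, went from 1910 and 1597 to 820 and 1024 FPKM. *Sox2* rose with the medium in wild type. The part of the markers in the results was not tested. In such bulk samples, fewer cells of a type and less RNA per cell cannot be told apart.

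HSP90 proteins are ATP-dependent chaperones that bind client proteins, among them many kinases and steroid receptors, at a late stage of folding. HSP70 proteins, recruited by J-domain proteins, hold clients earlier and pass them on, and kinases are brought to HSP90 by CDC37. The transcription factor HSF1 drives heat shock genes under proteotoxic stress and is itself held back by chaperones.

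HSF1 binds inverted repeats of the unit NGAAN, so the promoters of the members were searched for GAANNTTC or TTCNNGAA on both strands. RefSeq promoter windows of 300 bases (250 before and 50 after the start of a gene, GRCm38.p6) were at hand for 6 members in 8 windows. No window was at hand for *Hsp90ab1*, *Hsp90aa1*, *Hsf1* and *Hspa8*, so these were not searched. The letters were present in *Hsph1* and *Cdc37*, and in 15.1% of 32851 promoter windows of the same length. Counted by gene, 4587 of 27025 genes had a match. The 3-unit form has a further unit at the same spacing. It was present in *Hsph1* alone among the 6 members searched, in 0.603% of all windows and in 179 of 27025 genes. *Hsp90b1*, *Trap1*, *Dnajb1* and *Slc35b2* held no match in these windows. The windows of the 2 members with a match are shown with that of *Slc35b2*, the neighbour of *Hsp90ab1*. Capitals mark the matched letters.
Hsph1, chr5:149636287-149636586, minus strand: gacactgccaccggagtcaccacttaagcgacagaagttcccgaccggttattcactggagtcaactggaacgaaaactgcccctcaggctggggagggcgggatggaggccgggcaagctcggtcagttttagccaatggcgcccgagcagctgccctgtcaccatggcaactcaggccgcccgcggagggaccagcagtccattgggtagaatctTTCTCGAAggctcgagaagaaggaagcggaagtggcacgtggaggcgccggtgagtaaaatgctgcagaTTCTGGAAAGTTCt
Cdc37, chr9:21149885-21150184, minus strand: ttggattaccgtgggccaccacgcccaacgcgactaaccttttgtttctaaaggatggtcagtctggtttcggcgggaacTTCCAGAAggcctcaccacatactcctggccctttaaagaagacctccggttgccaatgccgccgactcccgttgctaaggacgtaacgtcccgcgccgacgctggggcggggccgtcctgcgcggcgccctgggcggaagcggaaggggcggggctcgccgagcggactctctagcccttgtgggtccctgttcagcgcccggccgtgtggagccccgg
Slc35b2, chr17:45563686-45563985, plus strand: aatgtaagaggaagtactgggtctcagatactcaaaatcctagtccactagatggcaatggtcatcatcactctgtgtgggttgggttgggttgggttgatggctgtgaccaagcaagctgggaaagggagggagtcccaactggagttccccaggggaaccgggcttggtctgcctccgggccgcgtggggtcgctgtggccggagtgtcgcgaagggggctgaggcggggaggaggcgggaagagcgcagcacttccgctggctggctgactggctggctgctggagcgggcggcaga
In *Hsph1*, TTCTCGAA lay 25 bases before the start, and TTCTGGAA and GAAAGTTC overlapped each other after it. The single match of *Cdc37* lay 162 bases before the start. A match of letters is a description and was not examined for HSF1 binding.

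*Hsp90ab1* encodes the constitutive cytosolic HSP90 and ranked at position 20 of all genes by mean FPKM. In 2i + LIF it was at 2661 and 2782 FPKM in wild-type and 1392 and 1385 FPKM in *Trincr1−/−* ESCs. In PD + LIF it was at 2400 and 2472 FPKM in wild-type and 1383 and 1337 FPKM in *Trincr1−/−* ESCs. The 4 *Trincr1−/−* samples lay close together whatever the medium, and well below all 4 wild-type samples. The *Trincr1−/−* mean was 0.510 of wild type in 2i + LIF (1388 ± 4.66 against 2721 ± 85.2 FPKM, SD, n = 2) and 0.558 of it in PD + LIF (1360 ± 32.4 against 2436 ± 50.8 FPKM). On the log2(FPKM + 1) scale these differences were −0.97 and −0.84. An estimated 39310 fragments or more supported each value, so counting error was at most 0.504% of it.

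*Slc35b2* encodes a Golgi transporter of PAPS, the sulfate donor for sulfation of proteoglycans and other molecules. Its RNA did not share the lower level of *Hsp90ab1* but was higher in *Trincr1−/−* ESCs. It was at 9.90 and 10.6 FPKM in wild-type against 18.9 and 19.4 FPKM in *Trincr1−/−* ESCs in 2i + LIF, and at 7.42 and 7.01 against 11.6 and 12.3 FPKM in PD + LIF. The genotypes did not overlap in either medium, and the ratio of means was 1.87 in 2i + LIF and 1.66 in PD + LIF. Log2 differences were 0.84 and 0.66. *Slc35b2* was the least abundant member, with an estimated 205 to 576 fragments per sample and a counting error of up to 6.98%.

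**Figure D1:**
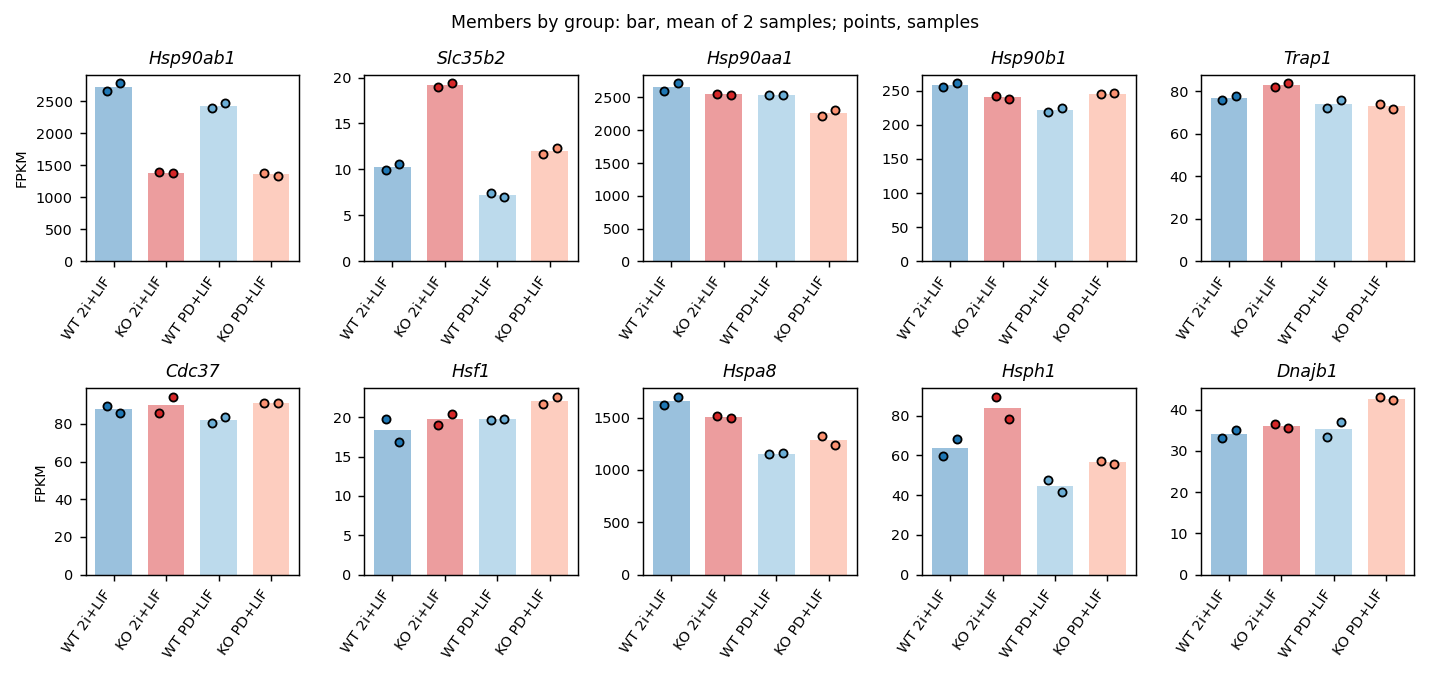
FPKM of the 10 members (vertical axes, linear from 0, scaled by gene) in wild-type (WT, blue) and *Trincr1−/−* (KO, red) ESCs in 2i + LIF and PD + LIF; points are samples and bars the mean of 2 samples. *Hsp90ab1* was at 1392 FPKM or below in all *Trincr1−/−* samples against at least 2400 FPKM in wild type, and *Slc35b2* moved the other way. Both were chosen for these differences, and the other 8 genes, chosen by function, differed less between genotypes.

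The cytosolic paralog *Hsp90aa1* is the form that heat shock induces in many cells. It was at 2599 and 2713 FPKM in wild-type against 2557 and 2534 FPKM in *Trincr1−/−* ESCs in 2i + LIF, and at 2542 and 2540 against 2211 and 2315 FPKM in PD + LIF. In wild type in 2i + LIF, the means of *Hsp90ab1* and *Hsp90aa1* (2721 ± 85.2 and 2656 ± 80.8 FPKM) differed by less than the spread between samples. The ratio of *Hsp90ab1* to *Hsp90aa1* was 1.024 and 1.025 in wild type in 2i + LIF and 0.544 and 0.547 in *Trincr1−/−*, and 0.944 and 0.973 against 0.625 and 0.577 in PD + LIF. Their summed FPKM was 5260 and 5495 in wild-type against 3949 and 3919 in *Trincr1−/−* ESCs in 2i + LIF, and 4942 and 5012 against 3593 and 3652 in PD + LIF. *Hsp90ab1* made up 50.6% of that sum in both wild-type samples and 35.2% and 35.3% in the *Trincr1−/−* samples in 2i + LIF. These ratios carry the choice of *Hsp90ab1* in them and are given as a description.

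For the 8 members chosen by function, log2 differences in 2i + LIF ran from −0.14 to 0.39. *Hsp90ab1*, chosen for its difference, stood at −0.97. The lowest of the 8 were *Hspa8* (−0.14, 95% interval −0.24 to −0.04) and *Hsp90b1* (−0.10, −0.18 to −0.02), both lower in *Trincr1−/−* ESCs without overlap of the samples. By limma with Benjamini-Hochberg adjustment over 15430 genes, 0 of 8 passed an adjusted p of 0.05, where 1.21% of all genes did, so the count of 0 is no result about the members. At an unadjusted p under 0.05, 3 of 8 members passed, against 14.6% of all genes. Of the 8, 6 had samples that did not overlap between genotypes, as had 44.4% of all genes. The median log2 difference of the 8 was 0.05, beside 0.00 for all genes tested, and 5 were positive and 3 negative.

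Among the paralogs in 2i + LIF, *Hsp90aa1* differed by −0.06 (SE 0.04, 95% interval −0.15 to 0.02, adjusted p = 0.501 by limma). *Hsp90b1*, the endoplasmic reticulum (ER) form also called GRP94, was at 255 and 261 FPKM in wild-type and 243 and 238 FPKM in *Trincr1−/−* ESCs, a log2 difference of −0.10 (SE 0.03, adjusted p = 0.237 by limma). *Trap1*, the mitochondrial form, was at 76.0 and 77.9 against 81.9 and 83.7 FPKM, a difference of 0.10 (SE 0.04, adjusted p = 0.345 by limma). The 95% intervals of all 3 paralogs stayed between −0.18 and 0.21. *Hsp90ab1* was chosen for its difference of −0.97, at rank 161 of 15430 genes by size. Most genes lie far from it, so the gap is no result about the paralogs.

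*Cdc37*, the kinase-specific cochaperone, was at 89.7 and 86.0 FPKM in wild-type and 85.5 and 94.4 FPKM in *Trincr1−/−* ESCs in 2i + LIF. *Hsf1* was at 19.8 and 16.9 against 19.0 and 20.5 FPKM. The genotypes overlapped for both genes, with log2 differences of 0.03 (95% interval −0.10 to 0.16) and 0.10 (−0.09 to 0.30).

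Of the HSP70 system in 2i + LIF, *Hspa8*, the constitutive HSC70, was at 1619 and 1700 FPKM in wild-type and 1518 and 1497 FPKM in *Trincr1−/−* ESCs, a log2 difference of −0.14 (adjusted p = 0.192 by limma). *Hsph1*, the HSP110 nucleotide exchange factor of HSP70, had the widest difference among the 8, with 59.5 and 68.4 against 89.6 and 78.4 FPKM. The samples did not overlap, and the log2 difference of 0.39 (SE 0.10, 95% interval 0.16 to 0.61) had an adjusted p of 0.130 by limma. *Dnajb1*, the heat shock inducible HSP40 that feeds clients to HSP70, was at 33.2 and 34.95 against 36.5 and 35.5 FPKM (log2 difference 0.08, adjusted p = 0.643 by limma).

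In PD + LIF, 3 of the 8 members passed the threshold, where 12.1% of all genes did, and their directions were split. At an unadjusted p under 0.05, 6 of 8 passed, against 28.5% of all genes. *Dnajb1* and *Hsp90b1* rose, where 6.29% of all genes were called higher, and *Hsp90aa1* fell, where 5.77% were called lower. The median log2 difference of the 8 was 0.15, beside 0.01 for all genes. Samples did not overlap between genotypes for 7 of 8 members and 57.7% of all genes.

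*Dnajb1* was at 33.4 and 37.0 FPKM in wild-type and 43.1 and 42.2 FPKM in *Trincr1−/−* ESCs in PD + LIF, a rise of 0.27 on the log2 scale (SE 0.06, adjusted p = 0.0337 by limma). *Hsp90b1* rose from 219 and 225 to 245 and 246 FPKM, by 0.14 (SE 0.03, adjusted p = 0.0356 by limma). *Hsp90aa1*, the only member called lower, fell by 0.17 (SE 0.04, adjusted p = 0.0285 by limma), with a *Trincr1−/−* mean of 0.890 of wild type where that of *Hsp90ab1* was 0.558. These 3 calls were near the threshold. With the 4 samples of the comparison alone none of the 3 passed, and leaving out any of the 8 samples left 0 or 1 of the 8 members past it, with 0 when either *Trincr1−/−* sample or the first wild-type sample in PD + LIF was left out.

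The other 5 members did not pass the threshold in PD + LIF. *Hspa8* was at 1148 and 1158 FPKM in wild-type and 1327 and 1242 FPKM in *Trincr1−/−* ESCs (log2 difference 0.15, adjusted p = 0.0551 by limma). *Hsph1* was again the furthest apart of the 8, with 47.8 and 41.8 against 57.3 and 55.9 FPKM (0.33, 95% interval 0.11 to 0.56, adjusted p = 0.0664 by limma). *Hsph1* was thus higher in all 4 *Trincr1−/−* samples than in the wild-type samples of the same medium, without passing the threshold in either medium.

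*Cdc37* was at 80.3 and 83.6 against 91.1 and 90.8 FPKM in PD + LIF (0.15, adjusted p = 0.132 by limma). *Hsf1* was at 19.7 in both wild-type samples against 21.6 and 22.6 FPKM (0.16, adjusted p = 0.263 by limma). *Trap1* overlapped between genotypes, at 72.2 and 75.9 against 73.8 and 71.9 FPKM (−0.02, 95% interval −0.13 to 0.08). The upper ends of the intervals for *Cdc37* and *Hsf1* were 0.28 and 0.35, so rises up to that size lie within the intervals that 2 samples a group gave.

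**Figure D2:**
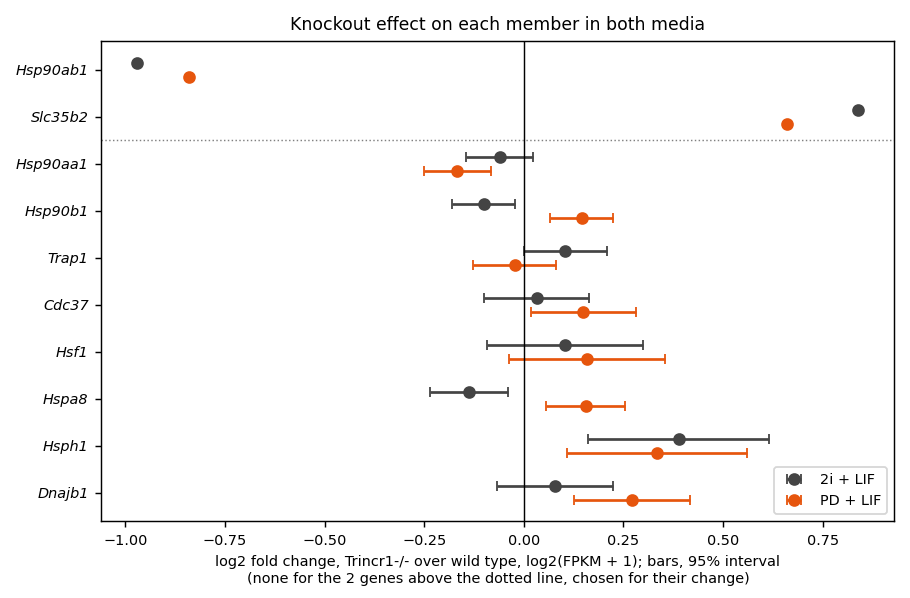
Log2 difference between *Trincr1−/−* and wild-type ESCs on the log2(FPKM + 1) scale (horizontal axis) for each member in 2i + LIF (grey) and PD + LIF (orange). Bars are 95% intervals of the limma fit and are left out above the dotted line, for the genes chosen for this difference; the other 8 genes lay between −0.17 and 0.39, against −0.97 and −0.84 for *Hsp90ab1*.

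The knockout differences of the 8 members were also compared between media. The test of the difference passed for 0 of 8 by limma after adjustment, where 1.81% of all genes passed, and for 2 of 8 at an unadjusted p under 0.05, against 19.0% of all genes. Those were *Hspa8* and *Hsp90b1*, for which *Trincr1−/−* ESCs were below wild type in 2i + LIF and above it in PD + LIF. The difference was 0.29 for *Hspa8* (SE 0.06, adjusted p = 0.0606) and 0.25 for *Hsp90b1* (SE 0.05, adjusted p = 0.0562) in limma. Both passed when genes were first limited to a mean above 1 FPKM or when samples were scaled to the same median.

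The media were compared within each genotype with the same samples, so these differences are not independent of the knockout differences. *Hsp90ab1* and *Slc35b2*, chosen for their values in these samples, are therefore described without a test here too. From 2i + LIF to PD + LIF in wild-type ESCs, 3 of the other 8 members passed, all of them lower, where 52.2% of all genes were called and 21.3% were called lower. *Hspa8* fell by 0.52 (adjusted p = 0.0001 by limma), *Hsph1* by 0.50 and *Hsp90b1* by 0.21. When samples were scaled to the same median, 6 of the 8 passed. In *Trincr1−/−* ESCs, 5 of 8 passed, where 50.0% of all genes did. Of these, 4 fell and 1 rose, where 20.3% and 29.6% of all genes did. *Hsph1* fell by 0.56, *Hspa8* by 0.23, *Trap1* by 0.18 and *Hsp90aa1* by 0.17, and *Dnajb1* rose by 0.24. The count was 3 without the second *Trincr1−/−* sample in 2i + LIF or without either one in PD + LIF. *Hsp90ab1* differed between media by −0.16 in wild-type and −0.03 in *Trincr1−/−* ESCs, and *Slc35b2* by −0.45 and −0.63.

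Scaling samples to the same median moved the median of all genes by −0.11 in the wild-type medium comparison. The median of all genes was 0.08 in wild type and 0.07 in *Trincr1−/−* ESCs as deposited. Relative to it, *Hspa8* and *Hsph1* fell by 0.60 and 0.58 in wild type and by 0.30 and 0.63 in *Trincr1−/−* ESCs. Both passed the threshold in both genotypes under all 17 alternatives tried. *Hsp90b1* in wild type, and *Trap1*, *Hsp90aa1* and *Dnajb1* in *Trincr1−/−* ESCs, did not pass under every alternative. Over these alternatives the medium difference of *Hsp90ab1* in wild type ran from −0.32 to −0.10.

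*Slc35b2* and *Hsp90ab1* lie next to each other on chromosome 17, at chr17:45563963-45567669 and chr17:45567774-45573271 in the coordinates of the deposited table (GRCm38). In the GENCODE annotation of NCBIM37 they are transcribed from opposite strands towards each other, and 104 bases separate their ends in both builds. Strand is not stated for the libraries, so fragments past the annotated end of either gene cannot be assigned by strand. Per 1000 FPKM of *Hsp90ab1*, *Slc35b2* was at 3.72 and 3.82 FPKM in wild-type and 13.6 and 14.0 in *Trincr1−/−* ESCs in 2i + LIF. In PD + LIF it was at 3.09 and 2.84 against 8.42 and 9.23 FPKM. Both genes were chosen for their differences, so this ratio carries that choice and is a description.

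The other genes around the pair differed less in 2i + LIF. The pair was chosen for its differences, so this gap is no result about the neighbours. Of 15 genes tested within 500 kb of *Hsp90ab1* besides *Slc35b2*, 0 passed by limma in 2i + LIF, where 1.21% of all genes did, and 1 passed an unadjusted p of 0.05 (6.67%, against 14.6% of all genes). Their log2 differences ran from −0.28 to 0.22 with a median of −0.05, and the lowest adjusted p was 0.256. *Slc29a1*, a nucleoside transporter gene and the nearest gene on the *Hsp90ab1* side, was at 92.3 and 92.8 FPKM in wild-type and 83.9 and 86.6 FPKM in *Trincr1−/−* ESCs (−0.12, adjusted p = 0.568 by limma). *Nfkbie*, which encodes an inhibitor of NF-κB and lies 4.61 kb away beyond *Slc35b2*, was near 1 FPKM and differed by 0.02.

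In PD + LIF, 2 of the 15 neighbours passed, where 12.1% of all genes did. *Nfkbie* rose from 0.806 and 0.617 to 1.62 and 1.39 FPKM (0.55, adjusted p = 0.0336 by limma). *Gm7325* fell from 2.05 and 2.28 to 1.34 and 0.762 FPKM (−0.64, adjusted p = 0.0490 by limma). Leaving out any of the 8 samples left 0 of the 15 past the threshold. The others within 500 kb, *Supt3*, *Cdc5l*, *B230354K17Rik*, *Spats1*, *Gm9104*, *Aars2*, *Tmem151b*, *Slc29a1*, *Gm17080*, *Tmem63b*, *Gm16172*, *Mrpl14* and *Vegfa*, did not pass in either medium.

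**Figure D3:**
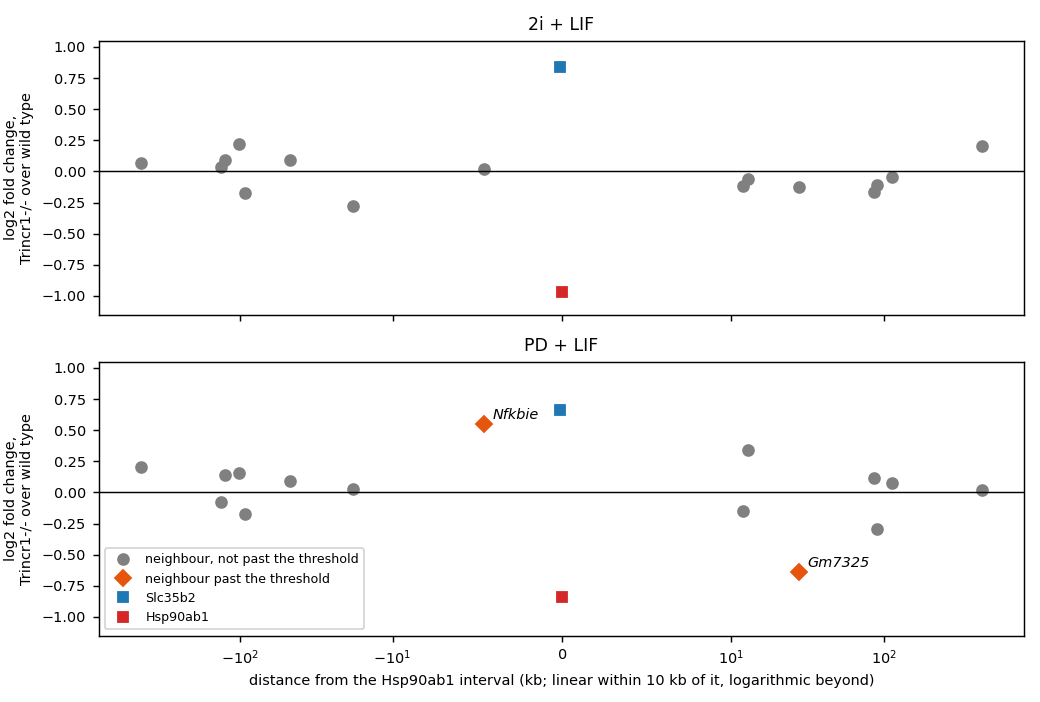
Log2 difference between *Trincr1−/−* and wild-type ESCs (vertical axes, log2(FPKM + 1) scale) for the genes within 500 kb of *Hsp90ab1* against distance from it in kb (linear within 10 kb, logarithmic beyond), in 2i + LIF (top) and PD + LIF (bottom). *Hsp90ab1* and *Slc35b2*, chosen for their differences, stood at −0.97 and 0.84 in 2i + LIF and at −0.84 and 0.66 in PD + LIF. Their 15 neighbours lay between −0.28 and 0.22 in 2i + LIF and between −0.64 and 0.55 in PD + LIF.

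Wider lists of chaperone and sulfation genes were compared next. Of 156 distinct genes in 10 lists, 152 could be tested. Some, among them *Hspa5*, *Dnajb11*, *Hspa9* and *Hspd1*, are counted in each list that holds them, so counts by list overlap. In 2i + LIF, 0 of 152 passed by limma, where 1.21% of all genes did, and 25 passed an unadjusted p of 0.05 (16.4%, against 14.6% of all genes). In PD + LIF, 16 rose and 7 fell, where 6.29% and 5.77% of all genes did, shares that also apply to each list below. These 23 became 5 and 8 without the first or second wild-type sample in PD + LIF, 2 and 11 without the first or second *Trincr1−/−* sample there, and 18 or 19 without any of the other 4 samples.

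Of 30 HSP90 cochaperones, 0 rose and 2 fell in PD + LIF, with a list median of 0.01, equal to that of all genes at this precision. *Ptges3*, which encodes the cochaperone p23 that stabilizes the ATP-bound form of HSP90, fell from 212 and 211 to 189 and 190 FPKM (−0.16, adjusted p = 0.0335 by limma). *Fnip1*, a folliculin-binding inhibitor of the HSP90 ATPase, fell from 8.53 and 7.90 to 5.30 and 6.21 FPKM (−0.45, adjusted p = 0.0311 by limma). The count was 0 when any sample other than the *Trincr1−/−* samples in 2i + LIF was left out. In 2i + LIF the cochaperones ran from −0.30 to 0.28, with a median of 0.01.

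Of 20 heat shock inducible genes, 5 rose and 0 fell in PD + LIF, with a median of 0.12 beside 0.01 for all genes. *Serpinh1*, the collagen chaperone HSP47, rose from 63.9 and 71.5 to 109 and 99.0 FPKM (0.62, adjusted p = 0.0055 by limma). *Cryab*, a small heat shock protein gene, rose from 4.71 and 6.94 to 10.1 and 13.4 FPKM (0.91, adjusted p = 0.0496 by limma). *Hspb1*, *Hspd1* and *Hspbp1* were the other 3, with rises of 0.29, 0.17 and 0.23. *Hspa1a* and *Hspa1b*, the stress inducible HSP70 genes, named here after their values were seen, reached at most 0.515 and 2.56 FPKM in any sample. Their reads are uncertain because the genes are near-identical copies. With the samples of the comparison alone, 0 of the 20 passed. The count was 0 without the first *Trincr1−/−* sample in PD + LIF, 1 without any other sample of that medium and 2 without either wild-type sample in 2i + LIF.

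The heat shock factor list held 4 tested genes, *Hsf2*, *Hsf4*, *Hsbp1* and *Hsf2bp*. Of these, 0 rose and 1 fell in PD + LIF, with a median of −0.16. The gene that fell was not a factor gene but *Hsf2bp*, a binding partner of HSF2. It went from 44.8 and 48.5 to 39.3 and 37.9 FPKM (−0.27, adjusted p = 0.0267 by limma). The factor genes *Hsf2* and *Hsf4* did not pass (adjusted p = 0.0871 and 0.778 by limma). In the HSP70 and HSP110 family, 2 of 12 rose and 1 fell, with a median of 0.09. *Hspa5*, the ER form BiP, rose from 127 and 132 to 186 and 172 FPKM (0.46, adjusted p = 0.0042 by limma), and *Hspa12b* from 0.596 and 0.452 to 1.33 and 1.17 FPKM. *Hspa9*, the mitochondrial form, fell by 0.16. Without any 1 of the 4 samples in PD + LIF, 0 heat shock factor genes and 1 gene of the HSP70 and HSP110 family passed.

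Of 20 J-domain genes, 3 rose and 0 fell, with a median of 0.07. *Dnajb2* rose by 0.52, *Dnajc9* by 0.34 and *Dnajb11*, an ER cofactor of BiP, by 0.29. The count was 0 without the first *Trincr1−/−* sample in PD + LIF and 1 without either wild-type sample there. Of 17 ER chaperones, 6 rose and 0 fell, with a median of 0.15 in PD + LIF and −0.07 in 2i + LIF. Besides *Hspa5* and *Dnajb11* these were *Calr*, *P4hb*, *Pdia4* and *Pdia3*, the genes of a lectin chaperone and of disulfide isomerases, with rises of 0.23, 0.28, 0.19 and 0.26. *Hsp90b1*, the ER paralog among the members, rose with them by 0.14. With the samples of the comparison alone, 1 of the 17 passed, as without the first *Trincr1−/−* sample in PD + LIF, and 2 passed without the first wild-type sample there.

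Of 11 mitochondrial chaperone and protease genes, 1 rose and 2 fell, with a median of 0.02. *Hspd1*, the chaperonin HSP60, went from 299 and 295 to 335 and 337 FPKM, and *Grpel2*, a nucleotide exchange factor of mitochondrial HSP70, fell by 0.35. Of 14 subunits of the chaperonin TRiC and of prefoldin, 0 rose and 1 fell, *Pfdn1*, by 0.20, and the median was −0.02. Without any 1 of the 4 samples in PD + LIF, 0 of the 11 mitochondrial genes passed, and *Pfdn1* passed only when the sample left out was the second *Trincr1−/−* sample in PD + LIF.

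Genes that share a pathway with *Slc35b2* were read in the same way. Of 21 genes of PAPS synthesis and sulfation tested, 2 rose and 0 fell in PD + LIF, with a median of 0.13. *Sulf1*, a sulfatase that trims heparan sulfate, rose from 8.54 and 9.28 to 16.0 and 15.6 FPKM (0.76, adjusted p = 0.0037 by limma), and *Ext1*, a heparan sulfate polymerase, from 8.98 and 10.2 to 17.2 and 13.3 FPKM. Of 19 other genes of the Slc35 transporter family, 0 rose and 1 fell, *Slc35f2*, by 0.50, although the median was 0.21. In 2i + LIF, where *Slc35b2* differed most, 0 of these genes passed, and the medians were 0.02 and −0.02. In PD + LIF, 1 sulfation gene passed without either *Trincr1−/−* sample in 2i + LIF, either wild-type sample or the first *Trincr1−/−* sample in PD + LIF, and *Slc35f2* did not pass without the first sample of either genotype in PD + LIF.

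**Figure D4:**
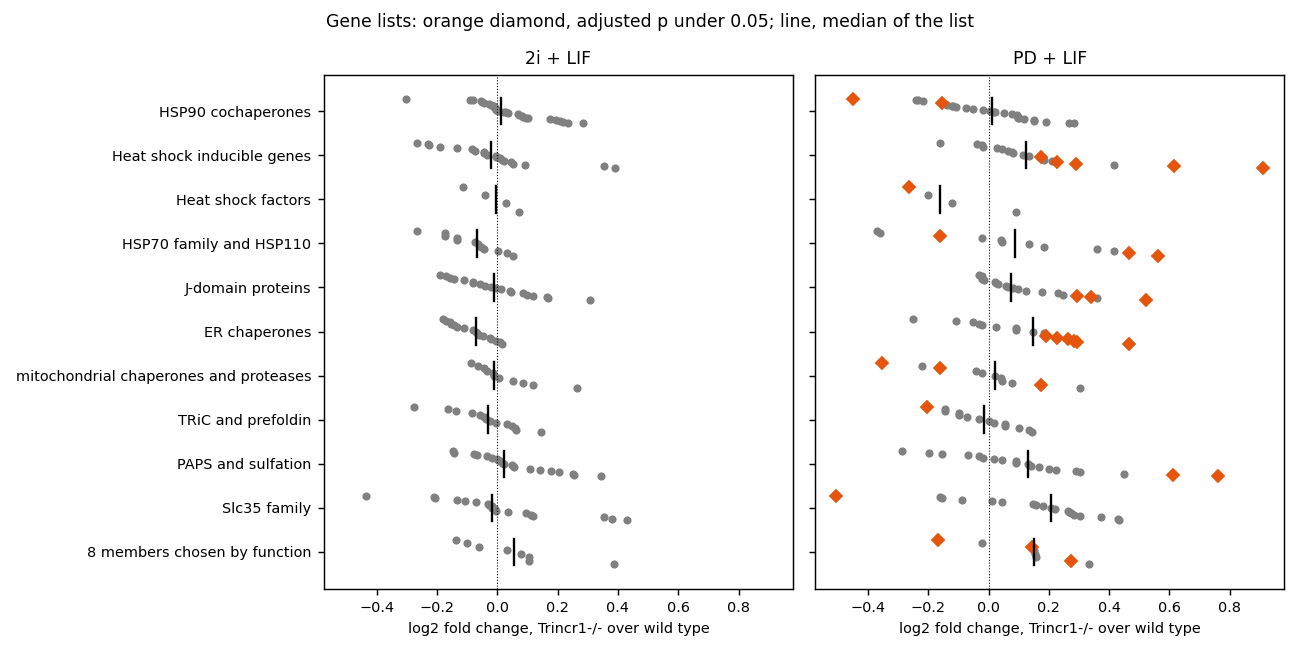
Log2 difference between *Trincr1−/−* and wild-type ESCs (horizontal axes, log2(FPKM + 1) scale) for each gene of 10 lists and the 8 members chosen by function, in 2i + LIF (left) and PD + LIF (right). Orange diamonds passed an adjusted p of 0.05 and black lines are list medians. None passed in 2i + LIF, where 1.21% of all genes did. In PD + LIF, 6 of 17 ER chaperones passed, all of them higher, where 6.29% of all genes were called higher. With the samples of the comparison alone, 1 of the 17 passed.

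Over the 8 samples, log2(FPKM + 1) of 12062 genes with a mean of at least 1 FPKM was compared with that of *Hsp90ab1* by Pearson correlation, as a description, since the samples form 4 groups and the gene was chosen for its pattern. The most alike were *Xlr5a* (r = 0.985), *Xlr5b* (0.980), *Cyb5a* (0.974), *Plet1* (0.969) and *Itgb7* (0.969). *Cyb5a*, which encodes cytochrome b5 and was the most abundant of the 5, was at 98.8 and 95.3 FPKM in wild-type and 40.2 and 46.7 FPKM in *Trincr1−/−* ESCs in 2i + LIF, and at 74.2 and 71.4 against 39.9 and 35.3 FPKM in PD + LIF. *Xlr5a* and *Xlr5b* belong to a multigene family on the X chromosome and may share reads. Among the members, *Hsp90aa1* was closest, at position 398 (r = 0.685), while *Slc35b2* had the lowest value (r = −0.742).

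Near-identical sequence elsewhere in the genome can move reads between genes. In a search of NCBIM37 for stretches of at least 100 bases with 95% identity, 84.5% of the *Hsp90aa1* transcript and 87.9% of the *Hspa8* transcript had such a copy, compared with 8.04% of *Hsp90b1*, 6.83% of *Hsp90ab1* and 0 for the other 6. No member matched another member at this length and identity. Shorter shared stretches of *Hsp90ab1* and *Hsp90aa1* were not searched, so it was not tested whether their reads were distinct. The *Hsp90aa1* pseudogenes *Gm12346* and *Gm5844* averaged 25.7 and 9.70 FPKM, far below the 2502 FPKM of *Hsp90aa1*. No FPKM value was found for the 2 annotated pseudogenes of *Hspa8*, so the same comparison could not be made for it.

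The pulldown asked which RNAs associate with TRIM71, an RNA-binding protein. The table holds a single FPKM value per transcript for the FLAG-TRIM71 immunoprecipitate (IP) and for the input, with no replicates, so there is no error or test. Input RNA was selected on poly-T beads and IP RNA was not, so folds also compare library preparations. None of the 10 members reached the enrichment cutoff, a ratio of scaled IP to scaled input above 3. Of the 9651 transcripts with more than 2 FPKM in the input, 5.1% passed it. All 10 had a fold below 1, as had 85.0% of the 5438 transcripts with an input of at least 10 FPKM.

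*Hsp90ab1*, at 1258 FPKM the most abundant member in the input, had 167 FPKM in the scaled IP, a fold of 0.133. For *Hsp90aa1* these values were 661 and 422 FPKM, a fold of 0.638, the highest among the members. *Hsph1*, *Trap1* and *Hsf1* had folds of 0.589, 0.481 and 0.384, and *Hspa8*, *Cdc37* and *Hsp90b1* of 0.277, 0.274 and 0.271. *Slc35b2* and *Dnajb1* had folds of 0.197 and 0.130, beside a median of 0.199 for transcripts with an input of at least 10 FPKM. *Hsp90ab1* and *Slc35b2* were thus near or below that median, and *Hsp90aa1* above it. The median fold also differed with input. Among transcripts of similar input it was 0.288 for *Hsp90ab1*, 0.278 for *Hspa8*, 0.212 for *Slc35b2* and 0.180 for *Dnajb1*, above their folds. It was 0.251 for *Hsp90aa1*, 0.247 for *Trap1*, 0.245 for *Hsp90b1*, 0.239 for *Cdc37*, 0.137 for *Hsf1* and 0.0933 for *Hsph1*, below their folds. When the IP was scaled to the median of the input, the folds of *Hsp90aa1* and *Hsph1* were 1.14 and 1.06 and those of the other 8 stayed below 1.

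**Figure D5:**
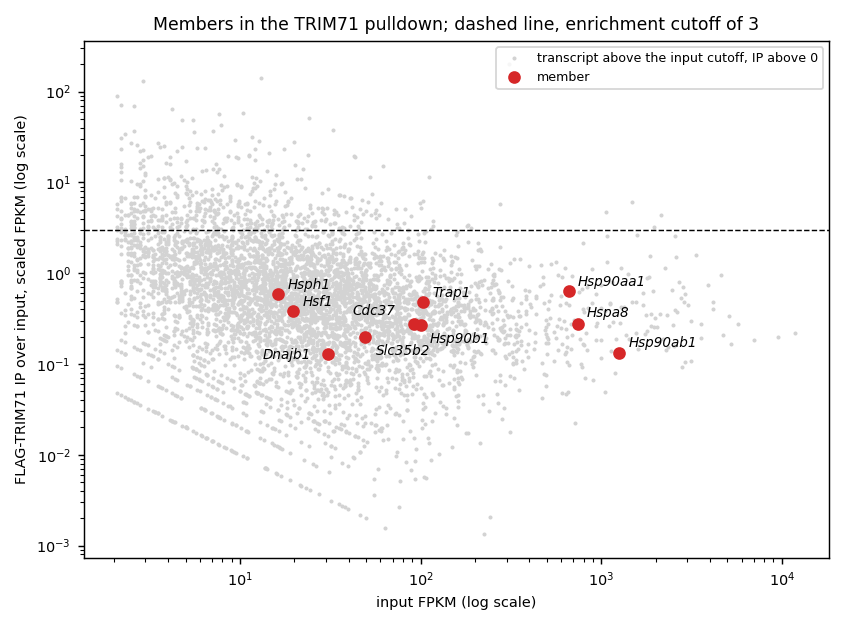
Scaled FLAG-TRIM71 IP over input (vertical axis, logarithmic) against input FPKM (horizontal axis, logarithmic) for transcripts with an input above 2 FPKM; grey points are transcripts with an IP above 0, red points the members, and the dashed line the enrichment cutoff of 3. The members lay between 0.130 and 0.638, all below the line.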

How the data were processed

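The authors aligned reads of poly(A) RNA with STAR 2.5.0 and deposited 1 FPKM value per gene and sample from Cufflinks 2.2.1. Per the labels the build was mm9, while the coordinates of the FPKM table match GRCm38. The pulldown table that the authors deposited has an FPKM value of the IP and of the input for each transcript, and a pair of scaled FPKM columns. Folds were recomputed from the scaled pair, and the deposited column of folds was not used. The replicates of the pulldown could not be separated, and the control pulldown from empty ESCs was not analysed here.

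Of 41260 entries, the highest was kept for each of 41204 gene identifiers, and 27 symbols that had become numbers were restored. Genes with a mean above 0.2 FPKM (15430) were compared as log2(FPKM + 1) with limma 3.58.1 in R 4.3.3, with a variance trend, a mean for each of the 4 groups, residual degrees of freedom of 4, and two-sided Benjamini-Hochberg adjusted p-values with a threshold of 0.05. A fold on this scale understates the change of low genes. The samples are labelled as biological replicates; nothing further on their cultures was used, so p-values measure the spread between these samples. FPKM sums ran from 497115 to 519651, and no scaling was added. Depth was estimated from single-transcript genes of 900 to 3000 bases, and 85.5% to 87.1% of low values lay within 0.1 of a whole fragment. Counting errors cover counting only.

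The members and lists were chosen with earlier results of these data known. The named genes are the members, all tested genes within 500 kb of *Hsp90ab1*, up to 2 rises and 2 falls per list among genes past the threshold without overlap, and the 5 genes most correlated with *Hsp90ab1*; other list genes past the threshold were named after their values were seen. Promoters came from RefSeq, and copies were searched with BLAST 2.17.0. Plots used matplotlib 3.10.9 in Python 3.11.15 with pandas 2.3.3 and numpy 2.4.6. On simulated data for the knockout comparison in 2i + LIF, with 200 of 15430 genes changed by 1 on the log2 scale, 168 were recovered with 9 false calls. The changed genes were drawn from those with a mean log2(FPKM + 1) above 2, and the noise was normal. Recovery of smaller changes, such as those of the 8 members chosen by function, was not simulated. Alternatives concerned the pseudocount, filter, normalization, variance model, samples fitted, replicate number, fold rule, windows and IP scaling.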

Additional observations from a re-analysis of the deposited data

Results flagged for a closer look

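The limma test of the difference between media passed for 3 of 152 list genes, all of them ER chaperone genes. This share of 1.97% was near the 1.81% of all genes, as was that at an unadjusted p under 0.05 (18.4%, against 19.0% of all genes). *Hspa5* differed by −0.14 on the log2 scale in 2i + LIF and by 0.46 in PD + LIF, a difference of 0.60 (adjusted p = 0.0272). For *Calr* the values were −0.06 and 0.23, a difference of 0.29 (adjusted p = 0.0380), and for *Pdia3* −0.07 and 0.26, a difference of 0.33 (adjusted p = 0.0368). In wild type all 3 were lower in PD + LIF than in 2i + LIF, by 0.74 for *Hspa5*, 0.61 for *Calr* and 0.64 for *Pdia3*. Of 16 alternatives, the difference passed the threshold in 6 for *Hspa5*, 5 for *Calr* and 4 for *Pdia3*, with adjusted p from 0.0180 to 0.107, 0.0252 to 0.170 and 0.0297 to 0.143, and in none of the 8 that left out a sample. No group held enough samples to search for a sample far from the others.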

How the results depend on the processing

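With 2 samples a group, p-values near the threshold moved with the fit, and the cause was not tested. In 2i + LIF, the count of members chosen by function past the threshold was 0 of 8 under each alternative with 2 samples a group. In the main fit 1.21% of all genes passed, and 0 with the samples of the comparison only. No member was enriched with TRIM71 under any setting, where 5.1% of transcripts passed in the main setting. At such shares, counts of 0 are no result about the members. In PD + LIF the count of 3 became 4 with a mean above 1 FPKM or scaling to the same median, 2 with quantile normalization, 1 with no filter on low values, 0 with no variance trend, 0 with the samples of the comparison only, 0 by the fold rule of the study (ratio above 2) and 0 to 1 with a sample left out. The replicate numbers did not pair the samples (correlations of deviations −0.054 to 0.006), and with the replicate number as a block the count was 1. For the difference between media, the count of 0 became 2 with a mean above 1 FPKM or scaling to the same median, and 1 with a pseudocount of 10 FPKM or quantile normalization. In the medium comparisons, scaling to the same median gave 6 in place of 3 in wild type, and in *Trincr1−/−* ESCs the count of 5 became 3 with no variance trend and 3 to 5 with a sample left out. Of the neighbours in PD + LIF, 1 passed in place of 2 with a pseudocount of 10 FPKM, no filter, the same median or no variance trend, 0 with the samples of the comparison only, and 0 with a sample left out. The 3-unit motif left 1 member with a match in place of 2.

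Small differences changed sign. With quantile normalization, *Hsp90aa1* differed by 0.0138 between genotypes in 2i + LIF, and the medium difference was 0.0412 for *Hsp90aa1*, 0.0444 for *Trap1* and 0.0176 for *Cdc37* in wild type and 0.00152 for *Hsp90ab1* in *Trincr1−/−* ESCs. With the same median it was −0.0495 for *Hsf1* and −0.113 for *Dnajb1* in wild type and −0.105 for *Hsp90b1* and −0.118 for *Cdc37* in *Trincr1−/−* ESCs. With a sample left out, the genotype difference ran from −0.0592 to 0.0121 for *Trap1* in PD + LIF, and in 2i + LIF from −0.0376 to 0.103 for *Cdc37* and from −0.00294 to 0.211 for *Hsf1*. The difference between media ran from −0.0526 to 0.161 for *Hsf1* and from −0.153 to 0.0440 for *Hsph1*. The medium difference ran from −0.0528 to 0.0876 for *Cdc37* in *Trincr1−/−* ESCs, and in wild type from −0.00236 to 0.212 for *Hsf1* and from −0.0261 to 0.116 for *Dnajb1*. *Hsp90ab1* ran from −1.002 to −0.90 in 2i + LIF and −0.86 to −0.80 in PD + LIF over 17 alternatives, and *Slc35b2* from 0.52 to 0.89 and 0.35 to 0.72.

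Fits with a sample left out are set aside here. Limma counts over all genes ran from 0 (samples of the comparison only) to 227 beside 186 in 2i + LIF. They ran from 316 to 2104 beside 1861 in PD + LIF, and from 39 to 418 beside 279 for the difference between media. The fold rule of the study, which holds no test, gave 302 genes in 2i + LIF and 492 in PD + LIF. In PD + LIF the lists ran from 0 to 4 (cochaperones, 2), 0 to 5 (heat shock inducible, 5) and 0 to 1 (heat shock factors, 1). Others ran from 1 to 4 (HSP70, 3), 0 to 3 (J-domain, 3), 1 to 7 (ER chaperones, 6) and 0 to 3 (mitochondrial, 3). The rest ran from 0 to 2 (TRiC and prefoldin, 1), 1 to 4 (sulfation, 2) and 0 to 2 (Slc35 family, 1).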
